A study of Arabidopsis thaliana with 12 samples.

Results

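Gene expression was compared between 16 and 12 days after flowering (DAF) in developing seeds of Arabidopsis thaliana homozygous for abi3-6, a mutation of ABI3. All probe sets other than controls were taken from the 3 arrays of abi3-6 seeds at 16 DAF and the 3 arrays of abi3-6 seeds at 12 DAF, 6 of the 12 arrays of the study. The other 6 arrays were of wild-type Col-0 seeds at the same ages, 3 at each, and serve here only to show where the course in abi3-6 differed. Plants of both genotypes grew at 22 °C with 16 h of light and 8 h of dark, seeds were dissected out of siliques, and each group came from 3 batches of plants. Of 22810 probe sets, 22746 were not controls, and 14873 of these reached the dim limit (below) on at least 3 of the 12 arrays and were tested. ABI3 itself had no probe set paired with it alone, so the level of the mutated gene is not reported here, and the genotypes rest on the labels.

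ABI3 is a B3-domain transcription factor of the seed maturation programme, in which the embryo stops dividing, fills with storage protein and oil, becomes desiccation tolerant and loses its chlorophyll. It acts with the factors LEC1, LEC2 and FUS3 and binds promoters of storage protein, oleosin and late embryogenesis abundant (LEA) genes. Seeds of strong abi3 mutants stay green, are not dormant and do not survive drying. The comparison asks how the seed transcriptome moves through these days when ABI3 function is lost.

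Values are on the log2 scale, read as such from their range. Median levels of the abi3-6 arrays lay between 4.41 and 4.45 at 12 DAF and between 4.43 and 4.46 at 16 DAF, and between 13507 and 13701 probe sets per array reached the dim limit of 3.16, the 40th percentile of all values. Across probe sets, correlations were 0.991 to 0.994 among the 12 DAF arrays, 0.983 to 0.992 among the 16 DAF arrays and 0.861 to 0.907 between the ages. The 3′ minus 5′ difference of the ubiquitin control was -0.17 ± 0.10 (SD, n = 3) at 12 DAF and 0.18 ± 0.09 at 16 DAF, with an exact permutation p of 0.1, the smallest that 3 arrays against 3 allow. That of actin was 0.37 ± 0.09 and 0.37 ± 0.03. The arrays of the 2 ages carry names of a different form in both genotypes, so age and whatever that form stands for cannot be told apart. The sample titles of the wild-type 12 DAF group are also numbered in a form that no other group has. What it stands for is not stated, and it cannot be told apart from the wild-type change with age or from the interaction.

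Replicate 3 at 16 DAF stood apart from the other 16 DAF arrays in the direction of the change with age. Of the 260 probe sets that fell at least 8-fold it was the lowest of the 3 arrays in 216, against 20 for replicate 1 and 24 for replicate 2. Of the 112 that rose at least 8-fold it was the highest in 87, against 11 and 14. Without it, all 260 and all 112 still passed, 211 and 92 of them still by 8-fold, and the median changes went from -3.78 to -3.53 and from 3.65 to 3.41. Of the 121 genes named below that passed in abi3-6, 118 passed without it, and 11 had a fold smaller by over 1.5 times. Their values without it are given beside them.

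Between 12 and 16 DAF in abi3-6, 7522 probe sets changed (50.6%): 4028 rose (27.1% of those tested) and 3494 fell (23.5%) at an adjusted p under 0.05 in limma with Benjamini-Hochberg adjustment over all probe sets tested. The 2 groups of 3 arrays did not overlap for 9434 (63.4%). A change of at least 2-fold was passed by 1468 upward (9.87%) and 1760 downward (11.8%), and one of at least 8-fold by 112 (0.753%) and 260 (1.75%). The median change over all probe sets tested was 0.07. With so many probe sets past the test, each count of list members below is to be read against 27.1% higher and 23.5% lower in abi3-6.

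In wild-type seeds 4762 rose (32.0%) and 4519 fell (30.4%) over the same days. Of the probe sets that rose in abi3-6, 2394 (59.4% of them, and 50.3% of the wild-type rises) also rose in wild type. Of those that fell, 2478 (70.9%, and 54.8% of the wild-type falls) also fell in wild type. Opposite calls were made for 349 that rose in abi3-6 and fell in wild type and for 230 that did the reverse. The difference between the courses was tested as the interaction of genotype and age. It passed for 5971 probe sets (40.1%), 3155 with the abi3-6 change above the wild-type change (21.2%) and 2816 below it (18.9%), the shares to set counts of interactions against. When each array was centred on its median this split turned to 2361 above and 4149 below, since centring moved the median wild-type change from 0.07 to 0.30, so small interactions depend on the scaling.

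The 12 largest falls with age in abi3-6 were sought among probe sets of 1 gene that passed and had no overlap between the ages. FACT, which joins caffeic acid to the fatty alcohols of suberin-associated waxes, was at 10.45, 10.14 and 10.22 at 12 DAF and at 2.05, 2.21 and 2.03 at 16 DAF. Every 16 DAF array lay below the dim limit, so that the fall was at least 138-fold. It was 7.58 on the log2 scale in wild type, from 10.73 ± 0.19 to 3.15 ± 0.04 (SD, n = 3).

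AT2G18370, of the lipid transfer protein family, was at 10.26, 10.38 and 10.43 and then at 2.64, 2.81 and 2.44, all dim, a fall of at least 147-fold. In wild type it was at 11.19 ± 0.15 and then at 4.98 ± 0.44. AT3G58550, of the related family of bifunctional inhibitors and lipid transfer proteins, was at 11.19, 11.54 and 11.58 and then at 4.88, 4.76 and 3.45, 134-fold lower. AT4G25980, of the peroxidase family, was between 8.62 and 8.87 and then dim on all 3 arrays, at least 47.1-fold lower. These 4 genes fell in both genotypes, with wild-type changes between -7.58 and -4.90.

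AT2G34700, of the pollen Ole e 1 and extensin family, was at 13.01, 12.40 and 12.82 at 12 DAF and at 6.79, 6.51 and 3.52 at 16 DAF. Its log2 change was -7.13 ± 0.59 (SE, adjusted p = 3.83e-07 in limma), and it was -6.09 without replicate 3 and -7.72 without replicate 1 of 16 DAF. AT3G04170, a germin-like gene, went from 12.26, 12.63 and 12.55 to 8.01, 7.64 and 4.90, a change of -5.63 ± 0.57, or -4.65 without replicate 3. Both groups were apart by several log2 units even where replicate 3 is set aside.

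AT5G07030, of the aspartyl protease family, fell 48.2-fold, and its 16 DAF arrays lay close together at 5.90, 6.03 and 5.67 after 11.30 to 11.61 at 12 DAF. AT1G71691, of the GDSL esterase and lipase family, went from 9.53 to 9.68 down to 3.24 to 4.15, a 64.0-fold fall. AT1G04660, a glycine-rich protein, went from 11.74 to 12.20 down to 5.22 to 7.05, a 51.9-fold fall. The remaining falls were OLEO3, described with the oleosins, and AT1G62210 and AT5G55620, whose roles are not stated here. AT1G62210 changed by -6.83 ± 0.49, or -6.02 without replicate 3, and AT5G55620 by -6.61 ± 0.28. All 12 fell in wild type too. The fall was larger in abi3-6 by the interaction test for AT2G18370, AT3G58550, AT5G55620, OLEO3, AT1G04660 and AT5G07030. It was so too for FACT and AT2G34700, whose interaction calls were lost in some alternatives. AT4G25980 fell more in wild type, by 1.08 in the interaction, which did not pass for AT1G62210, AT1G71691 and AT3G04170.

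**Figure D1:**
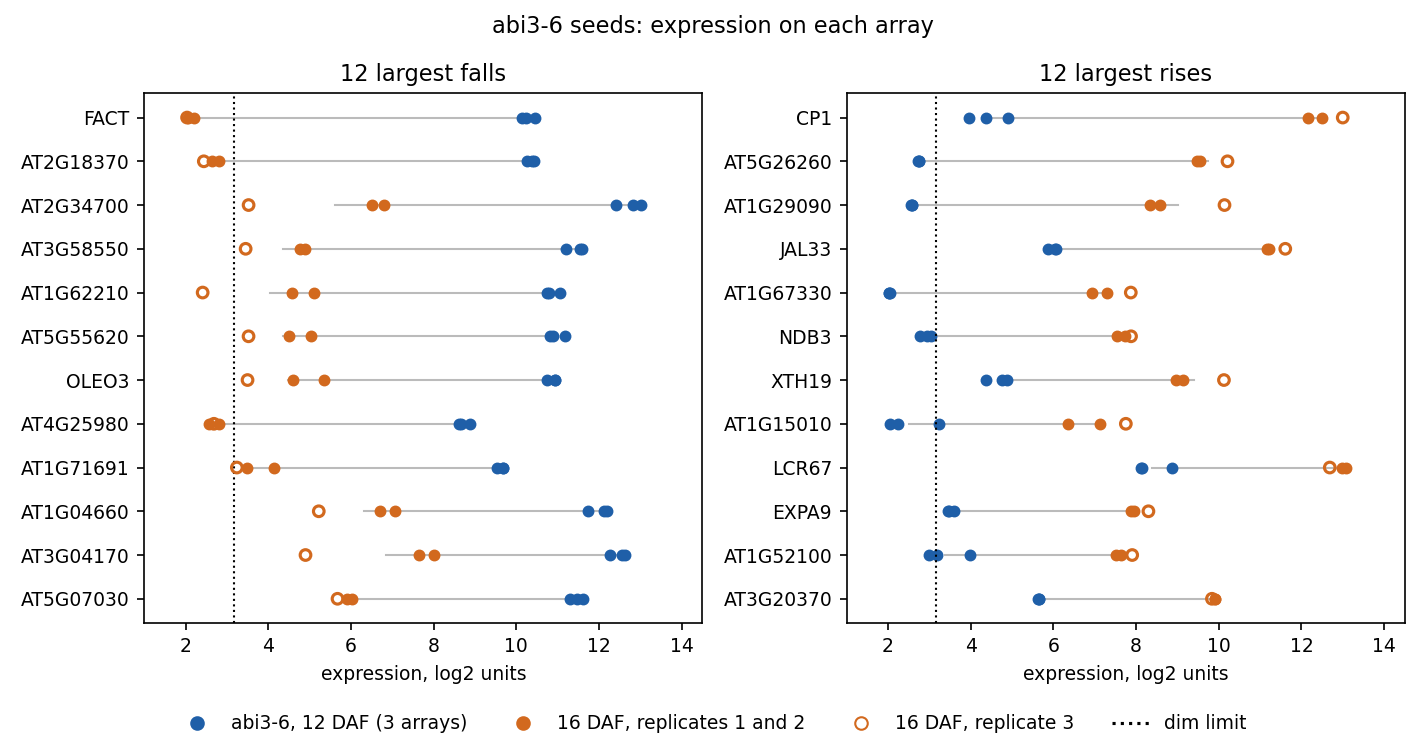
Log2 level on each abi3-6 array (horizontal axis) of the 12 genes with the largest falls and the 12 with the largest rises between 12 and 16 DAF, with 16 DAF replicate 3 as open circles and the dim limit of 3.16 as a dotted line. The ages do not overlap for any gene shown, which the rule for choosing them required, and FACT goes from 10.14 or more to 2.21 or less.

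Among the 12 largest rises were 2 genes of papain-type cysteine proteinases. CP1 (AT4G36880) was at 4.38, 3.97 and 4.90 at 12 DAF and at 12.17, 12.49 and 13.00 at 16 DAF. This was a rise of 8.14 ± 0.40 (SE), or 281-fold (adjusted p = 2.59e-09 in limma). In wild type CP1 was dim at 12 DAF and at 4.36 ± 0.99 at 16 DAF, a rise of at least 2.30-fold, and the courses differed by 6.53 in the interaction. AT1G29090 was at 2.57, 2.55 and 2.57, all dim, and then at 8.58, 8.34 and 10.14, at least 58.1-fold higher, while the wild-type arrays were dim at both ages.

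Genes with TRAF-like (MATH) domains, a domain of protein interaction, were also among the large rises. AT5G26260 was dim at 12 DAF, at 2.76, 2.71 and 2.75, and reached 9.46, 9.54 and 10.21, at least 95.6-fold higher. AT3G20370 went from 5.62, 5.66 and 5.65 to 9.90, 9.90 and 9.84, 18.8-fold higher, and AT5G26280 from 3.61 to 3.79 up to 7.65 to 8.00, 17.9-fold higher. ZW9 rose by 0.97 and AT3G28220 fell by 1.21 on the log2 scale. Their mean wild-type levels were near the dim limit at both ages, which left little room to fall. They were 3.28 and 2.97 for ZW9 and 3.69 and 3.19 for AT3G28220. So 4 of the 5 tested members rose and 1 fell, with a median change of 4.16, against 0 rises and 1 fall in wild type, and the interaction passed for all 5. The wild-type counts depend on the scaling: centring each array gave 2 rises and 0 falls, and quantile normalization gave 2 and 1, with the interaction passing for 4. This list was assembled after its members had been seen among the large rises, so its count describes them and supports nothing further.

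Genes of wall-loosening proteins were also among the largest rises. XTH19, a xyloglucan endotransglucosylase/hydrolase, went from 4.75, 4.89 and 4.37 to 8.97, 9.13 and 10.13, 26.7-fold higher. EXPA9, an expansin, went from 3.60, 3.46 and 3.46 to 7.87, 7.95 and 8.30, 23.1-fold higher, while in wild type it fell at least 2.26-fold to dim levels. NDB3, an external NAD(P)H dehydrogenase of mitochondria, was dim at 12 DAF and between 7.54 and 7.88 at 16 DAF, at least 23.5-fold higher.

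LCR67, a plant defensin, went from 8.13, 8.13 and 8.86 to 12.97, 13.07 and 12.69, and it alone of the 12 also rose by over 8-fold in wild type, by 3.05 on the log2 scale. AT1G67330, of the DUF579 family, was dim at 12 DAF and between 6.93 and 7.87 at 16 DAF, at least 18.4-fold higher. AT1G15010, whose role is not stated here, was above the dim limit on 1 of 3 arrays at 12 DAF and rose by 4.57 ± 0.38. The jacalin-related lectins JAL33 and AT1G52100 complete the 12. All 12 rises passed the interaction with the abi3-6 change above the wild-type change.

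Proteins of the endoplasmic reticulum (ER) body, a compartment of Brassicales that stores the β-glucosidase PYK10 and is formed with the help of NAI1 and NAI2, rose together with the lectins that bind PYK10. Of the 8 tested members 6 rose and 1 fell, with a median change of 2.26, while in wild type 1 rose and 1 fell with a median of 0.16, or 0.10 at the bound. JAL33 went from 5.86, 6.05 and 6.06 to 11.17, 11.22 and 11.61, 40.6-fold higher (adjusted p = 6.34e-12 in limma), and was at 2.78 ± 0.05 in wild type at 16 DAF. JAL34 went from 7.39 to 7.64 up to 10.42 to 11.14, 9.56-fold higher.

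JAL22 was dim at 12 DAF and reached 6.27, 6.04 and 7.54, at least 11.0-fold higher. PYK10 went from 10.19, 10.43 and 10.34 to 13.06, 13.05 and 13.38, 7.18-fold higher. BGLU19, a β-glucosidase of seeds, changed the other way by -0.94 ± 0.28, and its call was lost without 12 DAF replicate 1 (-0.82, adjusted p = 0.0524 in limma). Its abi3-6 levels were low at both ages, 4.33, 4.15 and 3.80 and then 3.58, 3.59 and 2.29, the last below the dim limit. In wild type BGLU19 was at 13.10 ± 0.15 and then at 14.06 ± 0.03 (SD, n = 3). The interaction was above 0 for 7 of the 8, but for 4 after centring each array and for 4 without 16 DAF replicate 3. The interaction of PYK10 was among those lost in both cases. It was also lost with array weights, with no filter and on leaving out any array but wild-type 16 DAF replicate 3. That array, at 5.22, was the only wild-type array on which PYK10 was above the dim limit.

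Over all jacalin-type lectins, a list assembled after values had been seen, 7 of 8 tested members rose and 1 fell, with a median of 2.73. AT1G52100 was at 3.97, 3.19 and 2.99 at 12 DAF, above the dim limit on 2 of 3 arrays, and between 7.51 and 7.91 at 16 DAF, 19.7-fold higher. In wild type 2 of the 8 rose and 0 fell, with a median of 0.16, or 0.11 at the bound. The rise of JAL22, JAL33, JAL34 and AT1G52100 stood on all 3 arrays, with no overlap between the ages.

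Storage protein genes fell. The 6 tested members are cupins, and none is a main cruciferin or napin gene; 5 fell and 0 rose, with a median change of -2.02. In wild type 2 fell, with a median of -0.43, and the interaction was below 0 for 4. The wild-type falls were 1 after centring each array and 4 without abi3-6 16 DAF replicate 3, which enters the spread shared by all groups. AT4G36700, a vicilin-like cupin, went from 12.91, 12.44 and 12.83 to 9.27, 9.21 and 7.12, a change of -4.19 ± 0.42, or -3.49 without 16 DAF replicate 3.

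AT1G03890, a cruciferin-like cupin, went from 12.38, 12.41 and 12.44 to 9.64, 9.27 and 7.17, a change of -3.72 ± 0.44, or -2.96 without that array. AT2G28490 went from 13.33, 13.53 and 13.47 to 10.57, 10.99 and 9.84, 7.87-fold lower. AT1G07750 fell 2.08-fold, from 8.35 ± 0.27 to 7.29 ± 0.03 (SD, n = 3). These 4 cupins lay above the dim limit on every array at both ages.

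Oleosins, the proteins that coat oil bodies, also fell, in 3 of 4 tested genes. OLEO3 went from 10.93, 10.74 and 10.93 to 5.34, 4.60 and 3.50, a change of -6.39 ± 0.32 (SE), or 83.9-fold. In wild type it went from 13.16 ± 0.06 to 10.19 ± 0.13, so the level at 16 DAF was lower in abi3-6 and the courses differed by -3.42 in the interaction. AT3G18570 went from 9.78, 9.50 and 9.38 to 4.92, 4.82 and 2.77, a change of -5.39 ± 0.41, or -4.68 without replicate 3.

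Wild-type levels of AT3G18570 were 11.86 ± 0.20 and 11.66 ± 0.13, and their change of -0.20 did not pass. AT3G01570 went from 13.25, 13.15 and 13.39 to 10.53, 10.27 and 9.07, 9.88-fold lower. Its wild-type levels were 14.24 ± 0.14 and 13.82 ± 0.08 (SD, n = 3), and their change of -0.42 ± 0.28 (SE) did not pass. That SE rests on the spread of all 4 groups, the wide abi3-6 16 DAF group included. AT2G25890 was dim on every abi3-6 array, which left no room to fall. In wild type it was at 12.51 ± 0.14 and then at 13.10 ± 0.03, a rise of 0.58 beside an interaction of -0.77. Of the 4 oil body genes 3 fell, with a median change of -4.34 against -0.31 in wild type, and the interaction was below 0 for all 4. In wild type 1 rose and 1 fell, or 2 fell without abi3-6 16 DAF replicate 3.

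Genes that make the fatty acids of seed oil fell in both genotypes. Of 15 tested members 12 fell and 0 rose in abi3-6, with a median of -1.99, and 13 fell and 1 rose in wild type, with a median of -3.04. The mean level of the list was 8.90 ± 0.03 (SD, n = 3 arrays) at 12 DAF and 6.88 ± 0.22 at 16 DAF in abi3-6, against 8.73 ± 0.09 and 6.14 ± 0.21 in wild type. Interactions lay above 0 for 8 and below 0 for 2.

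AT5G16230, a stearoyl-ACP desaturase that introduces the double bond of oleic acid, went from 8.42, 8.22 and 8.35 to 4.12, 4.25 and 2.84, the last below the dim limit, 24.1-fold lower. AT5G16240, a gene of the same family, went from 9.05 to 9.10 down to 3.53 to 5.53, a change of -4.30 ± 0.40, or -3.68 without 16 DAF replicate 3. The acyl-ACP thioesterases FaTA and AT4G13050, which release the finished chain in the plastid, fell 13.2-fold and 10.8-fold, from 8.56 to 8.90 and from 8.48 to 8.64, to between 4.65 and 5.53 in both. In wild type these 4 genes changed by -3.81 to -3.24.

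Of 4 tested genes of oil breakdown, 2 rose in abi3-6 and all 4 rose in wild type, with medians of 0.33 and 1.39, the latter 1.36 at the bound. ICL, isocitrate lyase of the glyoxylate cycle, went from 14.02, 14.18 and 14.28 to 14.73, 14.95 and 14.79, 1.58-fold higher. SDP1-LIKE, a lipase of oil bodies, went from 4.02 to 4.76 up to 4.78 to 5.54, a rise of 0.93 ± 0.23. AIM1, a multifunctional enzyme of peroxisomal β-oxidation, changed by -0.28 ± 0.16, which did not pass, and rose by 1.54 in wild type.

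**Figure D2:**
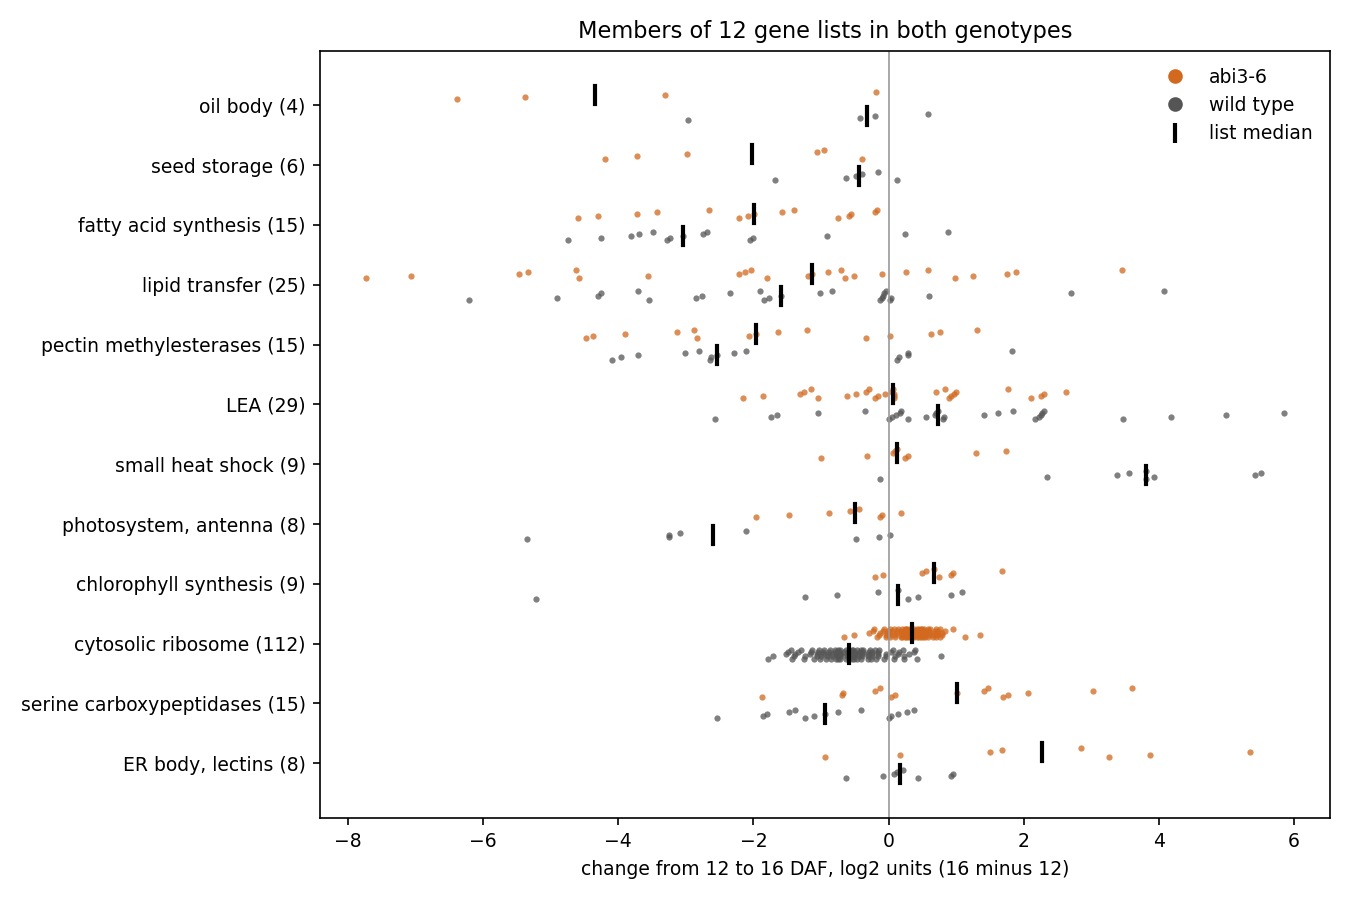
Log2 change from 12 to 16 DAF (horizontal axis) of each tested member of 12 gene lists in abi3-6 (orange) and wild type (gray), with a black bar at the median of each list. Oil body members in abi3-6 lie as low as -6.39 around a median of -4.34, and small heat shock members in wild type lie around a median of 3.80 against 0.12 in abi3-6.

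LEA proteins, hydrophilic proteins that accumulate as seeds dry, moved both ways in abi3-6. Of 29 tested members 11 rose and 8 fell, with a median change of 0.06, or 0 with the 5 members dim in a group set at their bound. In wild type 16 rose and 4 fell, with a median of 0.73, and the interaction was above 0 for 6 and below 0 for 16. The mean level of the list was 7.70 ± 0.03 (SD, n = 3 arrays) at 12 DAF and 7.90 ± 0.06 at 16 DAF in abi3-6, and 9.56 ± 0.05 and 10.68 ± 0.04 in wild type.

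AT1G54410, a small dehydrin, went from 10.18, 10.52 and 10.22 to 12.38, 12.44 and 12.99, 4.92-fold higher, and fell by 1.74 on the log2 scale in wild type. AT2G03850 was above the dim limit on 1 of 3 arrays at 12 DAF and between 5.01 and 6.31 at 16 DAF, a rise of 2.62 ± 0.24. LEA18 went from 7.87 to 8.01 up to 10.16 to 10.27, 4.77-fold higher, and rose by 2.17 in wild type.

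LEA (AT2G21490, a dehydrin) went from 10.05, 10.27 and 10.40 to 8.58, 8.64 and 7.02, 4.47-fold lower. AT2G18340 rose by 4.18 in wild type and changed by -0.49 ± 0.17 in abi3-6, a call that was lost without 12 DAF replicate 1 (-0.29), 16 DAF replicate 2 (-0.43) or 16 DAF replicate 3 (-0.42). M17, a LEA-type gene outside the list, rose by 6.45 in wild type. In abi3-6 it was dim at 12 DAF and at 2.82, 3.25 and 4.52 at 16 DAF, above the limit on 2 of 3 arrays, at least 1.29-fold higher, and that call was lost on leaving out any array but 16 DAF replicate 1, with a change of 0.63 without replicate 3.

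Small heat shock proteins, chaperones that accumulate late in seed maturation, rose in wild type and for the most part did not pass in abi3-6. Of 9 tested members 2 rose and 1 fell in abi3-6, with a median of 0.12, or 0 with members at their bound, and 8 rose and 0 fell in wild type, with a median of 3.80, or 3.55 at the bound. The interaction was below 0 for 8 and above 0 for 1. The mean level of the list was 4.21 ± 0.10 (SD, n = 3 arrays) and 4.49 ± 0.14 in abi3-6, and 5.28 ± 0.37 and 8.79 ± 0.03 in wild type.

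AT1G52560 went from 5.73, 5.52 and 5.08 to 4.69, 4.42 and 4.20, a fall of 1.01 on the log2 scale, while it rose by 5.51 in wild type. AT5G37670 went from 3.94, 4.41 and 3.93 to 6.38, 5.50 and 5.61, 3.34-fold higher, against a rise of 3.80 in wild type. AT4G21870 was dim at 12 DAF and between 3.71 and 5.17 at 16 DAF, at least 2.29-fold higher. Of 5 other chaperones 3 rose and 1 fell (2 after centring each array). Fes1B, an exchange factor of Hsp70, went from 5.74 to 6.09 up to 8.06 to 8.35, 4.89-fold higher, with a wild-type change of 0.05 between dim levels.

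Further genes that rose in wild type stayed dim or fell in abi3-6. AT2G34740, a protein phosphatase of the PP2C family, was at 2.19, 2.17 and 2.22 and then at 2.23, 2.23 and 2.22 in abi3-6, and rose by 7.33 in wild type. AT1G12130, of the flavin monooxygenase family, lay below the dim limit on all 6 abi3-6 arrays and rose at least 32.0-fold in wild type. Its fitted change in abi3-6 passed at 0.42 between dim levels, and the call was lost on leaving out any of 4 arrays (12 DAF replicates 2 and 3, 16 DAF replicates 1 and 2). AT1G48750, of the lipid transfer family, fell by 0.90 on the log2 scale in abi3-6, from 8.74 ± 0.12 to 7.83 ± 0.17 (SD, n = 3), and rose by 4.08 in wild type.

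Regulators of seed maturation fell or did not pass. Of 6 tested members 4 fell and 0 rose, with a median of -0.73, and 4 fell in wild type with a median of -1.25. EEL, a bZIP factor that acts on LEA promoters, went from 10.54, 10.62 and 10.60 to 9.13, 9.41 and 8.20, 3.20-fold lower. BBM, an AP2 factor that promotes embryo identity, went from 4.46 to 4.65 down to 3.00 to 3.37, 2.54-fold lower, and AGL18, a MADS factor related to the embryo factor AGL15, went from 6.57 to 6.65 down to 5.69 to 5.77, 1.83-fold lower. Of the 6, 1 had an interaction above 0 and 0 had one below.

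Vacuolar processing enzymes (VPEs) cut storage proteins into their mature chains. ALPHA-VPE went from 11.16, 10.82 and 11.01 to 7.46, 7.68 and 6.41, 14.1-fold lower. BETA-VPE, the main seed form, fell 2.34-fold from 12.24 ± 0.12 to 11.02 ± 0.57 (SD, n = 3), with a wild-type change of 0.04, and GAMMA-VPE, a form of vegetative tissue, fell 2.18-fold. DELTA-VPE, which acts in the seed coat, was at 8.62, 8.97 and 8.96 and then at 9.23, 8.95 and 9.06, a difference of 0.23 that did not pass, and it fell by 3.49 in wild type. Thus 3 of 4 members fell in either genotype, with medians of -1.18 and -2.39, and DELTA-VPE was the member above 0 in the interaction.

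Transporters of the SWEET family carry sucrose or hexoses out of cells. Of 7 tested 4 fell and 0 rose, with a median of -0.70, and in wild type 4 fell and 2 rose with a median of -0.76. SWEET11, which exports sucrose towards the embryo, went from 10.87, 10.66 and 10.79 to 5.94, 5.50 and 5.37, 36.1-fold lower, and changed by -4.53 in wild type. SAG29, also known as SWEET15, went from 11.11 to 11.61 down to 6.46 to 7.93, 17.3-fold lower, with -3.45 in wild type. SWEET7 fell 2.32-fold.

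Starch genes moved both ways. APL3, a large subunit of ADP-glucose pyrophosphorylase, went from 6.85, 6.62 and 6.35 to 9.46, 8.94 and 9.65, 6.67-fold higher, and fell by 0.76 on the log2 scale in wild type. DPE1, a plastid enzyme of maltotriose metabolism, rose by 0.97 ± 0.28, and AMY1, an α-amylase, went from 6.85 to 6.97 down to 4.42 to 5.04, 4.69-fold lower. Of the 5 tested 2 rose and 1 fell (2 without 16 DAF replicate 3), with a median of 0.58, against 0 and 3 in wild type with a median of -0.76.

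Genes of cytosolic ribosomal proteins took different courses in abi3-6 and wild type. Of 112 tested members 54 rose, 2 fell and 56 did not pass in abi3-6, with a median change of 0.35, whereas 2 rose and 79 fell in wild type, with a median of -0.59. The interaction was above 0 for 91 and below 0 for 0, and 33 members both rose in abi3-6 and fell in wild type. The mean level of the list was 10.90 ± 0.04 (SD, n = 3 arrays) at 12 DAF and 11.25 ± 0.02 at 16 DAF in abi3-6, and 10.45 ± 0.05 and 9.87 ± 0.05 in wild type, and no array of one age overlapped the other in either genotype. The abi3-6 rises were 43 without 16 DAF replicate 3 and 71 after quantile normalization. After centring each array on its median, 51 rose in abi3-6 with a median of 0.34, and 10 rose and 58 fell in wild type with a median of -0.36. The interaction was then above 0 for 69 and below 0 for 0.

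The changes of single ribosomal genes were small. AT1G23410, a ubiquitin extension protein of the S27a type, went from 5.55, 5.52 and 5.37 to 7.02, 7.06 and 6.40, 2.55-fold higher, and AT3G44590, an acidic stalk protein, from 9.34, 9.16 and 9.26 to 10.38, 10.19 and 10.60, a rise of 1.14 ± 0.14. The 2 that fell were AT2G37600 (L36), by 0.52 on the log2 scale, and AT5G39850 (S9), with a change of -0.66 ± 0.25. The call of AT5G39850 was lost on leaving out 12 DAF replicate 1 (-0.52), 12 DAF replicate 3 (-0.70), 16 DAF replicate 1 (-0.72) or 16 DAF replicate 3 (-0.45). Many ribosomal proteins are encoded by near-identical gene copies, and probe sets can hybridise with more than 1 copy.

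**Figure D3:**
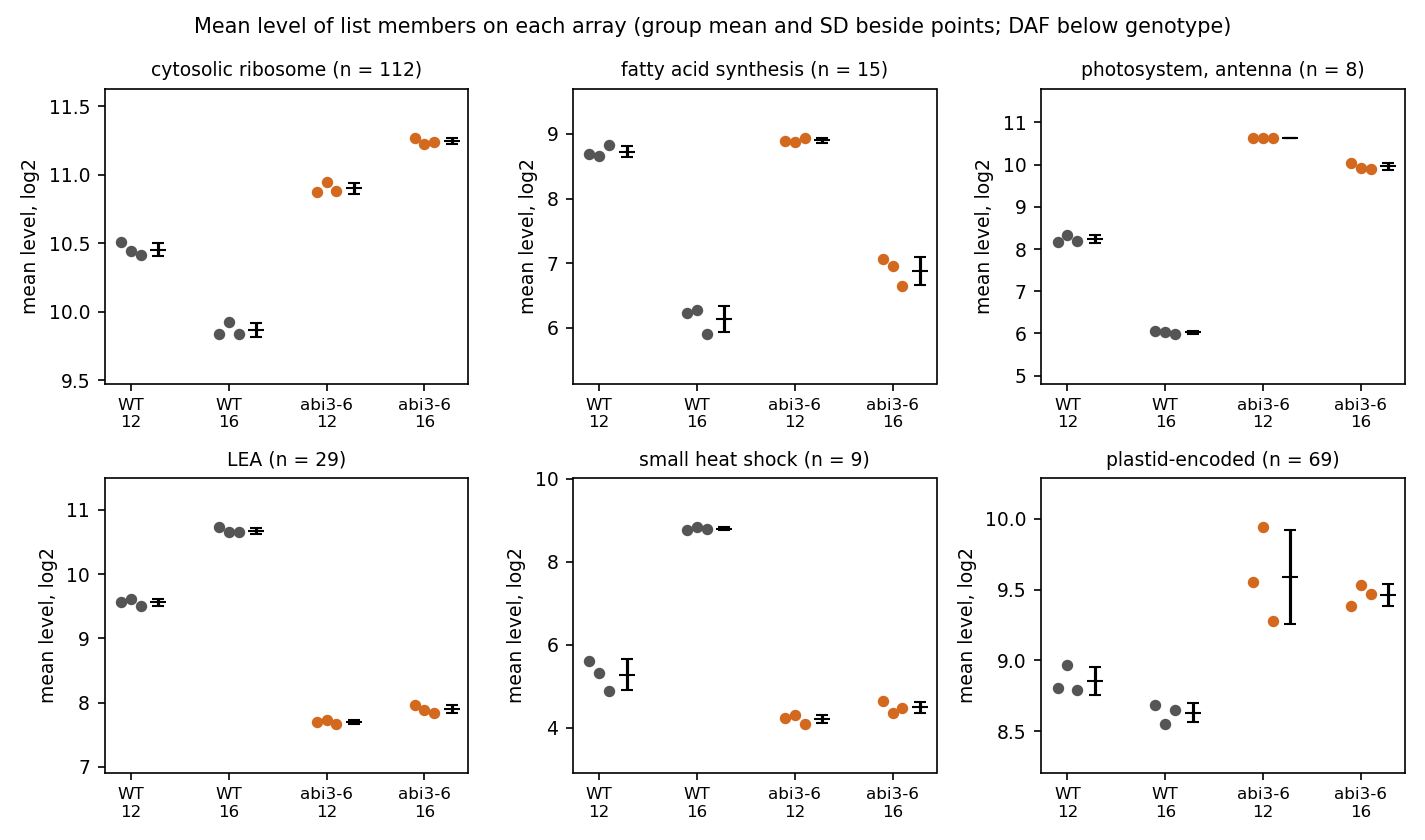
Mean log2 level over the tested members of 6 gene lists (vertical axis) on each array at 12 and 16 DAF in abi3-6 and wild type, with group means and SD over 3 arrays. Cytosolic ribosomal genes lie at 10.90 and 11.25 in abi3-6 and at 10.45 and 9.87 in wild type, and small heat shock genes at 4.21 and 4.49 in abi3-6 and at 5.28 and 8.79 in wild type.

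Nuclear genes of plastid ribosomes rose for the most part in both genotypes. In abi3-6, 6 of 7 rose (4 without 16 DAF replicate 3) with a median of 0.80, and in wild type 5 rose and 1 fell with a median of 0.75. AT4G17560 (L19) went from 6.87 to 6.97 up to 8.12 to 8.27, 2.41-fold higher, and AT1G64510 (S6) from 7.85 to 8.21 up to 8.91 to 9.36, 2.27-fold higher. AT5G47190 (L19) rose by 0.92 and AT3G13120 (S10) by 0.80 on the log2 scale.

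Of 69 genes encoded in the plastid genome 9 rose and 12 fell in abi3-6, shares below those of all probe sets tested, with a median of -0.10. In wild type 12 rose and 19 fell, but 18 rose and 12 fell after centring each array. The 12 DAF arrays of abi3-6 differed in these genes, and the mean level of the list was 9.59 ± 0.33 (SD, n = 3 arrays) at 12 DAF and 9.46 ± 0.07 at 16 DAF. rpoC1, a subunit of the plastid RNA polymerase, went from 8.16 to 8.78 up to 9.35 to 9.67, a rise of 1.08 ± 0.24, and rpl16, a ribosomal protein, from 7.64 to 8.98 up to 9.17 to 9.32.

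Photosynthesis genes fell in both genotypes. Of 8 tested genes of photosystems and their antennae 5 fell and 0 rose in abi3-6, with a median of -0.50, and 6 fell in wild type with a median of -2.60, or -2.52 at the bound. The interaction was above 0 for 5 and below 0 for 0. The mean level of the list was 10.63 ± 0.0022 (SD, n = 3 arrays) at 12 DAF and 9.96 ± 0.08 at 16 DAF in abi3-6, and 8.23 ± 0.10 and 6.02 ± 0.04 in wild type.

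PSBY, a small subunit of photosystem II, went from 10.59, 10.60 and 10.57 to 9.17, 9.10 and 9.06, 2.78-fold lower, against a change of -5.35 in wild type. LHCB4.3, an antenna protein of photosystem II, fell 3.88-fold, and PSAN, of photosystem I, fell 1.83-fold from 8.78 ± 0.07 to 7.91 ± 0.22 (SD, n = 3), while in wild type PSAN fell at least 7.58-fold to dim levels. The count of 5 falls was 3 after quantile normalization and 3 without 16 DAF replicate 1.

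Of 6 genes of electron transfer and carbon fixation 3 fell and 1 rose (0 without 16 DAF replicate 3), with a median of -0.76, against 4 and 1 in wild type with a median of -1.95, or -1.76 at the bound. PRK, phosphoribulokinase of the Calvin cycle, went from 10.02, 9.99 and 9.90 to 8.02, 7.95 and 8.35, 3.63-fold lower, and in wild type it fell at least 24.6-fold to dim levels. CaS, a calcium-binding thylakoid protein, fell 3.74-fold, with a wild-type change of -0.19 that did not pass. Wild-type levels of CaS were low at both ages, 3.95 ± 0.09 and 3.76 ± 0.33 (SD, n = 3), which left little room to fall. ATPC2, a γ subunit of the plastid ATP synthase, fell 1.96-fold and rose by 0.46 in wild type.

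Genes of chlorophyll synthesis rose for the most part in abi3-6. Of 9 tested members 7 rose (5 without 16 DAF replicate 3) and 0 fell, with a median of 0.67, against 3 and 3 in wild type with a median of 0.14, and the interaction was above 0 for 3. CHLI2, a subunit of magnesium chelatase, went from 5.35, 5.26 and 4.90 to 6.71, 6.54 and 7.30, 3.21-fold higher, with a wild-type change of -0.15 between dim levels. HEMA2, a glutamyl-tRNA reductase at the start of the pathway, rose by 0.96 ± 0.23 in abi3-6 and by 0.92 in wild type.

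Lipid transfer proteins, which carry lipids outside the cell and are rich in seed coat and epidermal layers, fell for the most part. Of 25 tested members 15 fell and 6 rose, with a median of -1.14, or -0.90 with 8 members at their bound, and in wild type 15 fell and 2 rose with a median of -1.60, or -0.84 at the bound. Beside AT2G18370 and AT3G58550, AT1G05450 went from 7.98 to 8.26 down to 2.05 to 3.21, above the dim limit on 1 of 3 arrays, 44.5-fold lower. AT5G38170 went from 12.21, 12.01 and 12.29 to 7.15, 8.06 and 5.29, a change of -5.34 ± 0.47, which was -4.57 without replicate 3 and -5.95 without replicate 2 of 16 DAF. AT3G53980 was the largest rise of the list, from 3.20 to 3.57 up to 6.54 to 7.02, 10.9-fold higher, with a wild-type change of 0.03 between dim levels.

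Germin-like proteins are cupins of the cell wall. The list was assembled after values had been seen, and all 5 tested members fell, with a median of -4.44, or -4.42 at the bound, as 4 did in wild type, with a median of -3.63. AT3G04150 went from 10.65 to 11.15 down to 4.83 to 7.37, a change of -4.44 ± 0.48, or -3.63 without 16 DAF replicate 3. AT3G04200 went from 7.54, 7.57 and 7.63 to dim levels on all 3 arrays, at least 21.4-fold lower, and was at least 52.7-fold lower in wild type.

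Pectin methylesterases trim the methyl groups of wall pectin, and their inhibitors hold them in check. The lists of both, also assembled after values had been seen, held genes that rose and genes that fell. Of 15 tested methylesterases 10 fell and 3 rose, with a median of -1.96, or -1.63 at the bound, against 10 and 1 in wild type with a median of -2.54. AT5G51490 went from 9.56, 9.69 and 9.74 to 5.03, 5.88 and 4.66, 22.2-fold lower, and PME61 from 7.09 to 7.34 down to 2.72 to 3.81, 14.9-fold lower. AT1G23200 changed by -4.37 ± 0.41, or -3.74 without 16 DAF replicate 3, and AT3G10720 rose by 1.31 ± 0.35.

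Of 10 tested inhibitors of pectin methylesterase 5 rose and 3 fell, with a median of 0.27, or 0.19 at the bound. AT5G62340 was dim at 12 DAF and reached 4.90, 5.17 and 6.20, at least 4.80-fold higher, and AT1G62770 went from 3.63, 3.81 and 3.76 to 6.88, 6.65 and 7.35, 9.34-fold higher. AT1G23205 went from 8.28, 7.94 and 7.92 to 3.86, 3.40 and 3.00, 24.7-fold lower, with a wild-type change of -0.50 that did not pass. Its wild-type levels were near the dim limit at both ages, 3.88 ± 0.34 and 3.37 ± 0.63 (SD, n = 3), which left little room to fall. AT3G17130 went from 6.98 to 7.40 down to 1.98 to 3.18, 22.7-fold lower.

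Of 10 tested expansins and XTHs 4 rose and 5 fell in abi3-6, with a median of -0.69, and in wild type 1 rose and 7 fell with a median of -1.52, or -1.30 at the bound. The interaction was above 0 for 6 and below 0 for 0, and for 4 and 1 after centring. XTH32 went from 7.65, 7.47 and 7.39 to 3.04, 3.10 and 3.32, 20.4-fold lower, next to the rises of XTH19 and EXPA9 above. Of 7 tested genes of tubulin, cellulose synthesis and fasciclin-like proteins 2 rose and 2 fell in abi3-6 with a median of 0.13, and 0 rose and 6 fell in wild type with a median of -0.74, or -0.50 at the bound. After centring each array 3 of them fell in wild type, and the abi3-6 counts stood.

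The tubulin genes TUB1, TUB5 and TUB7 did not move alike. TUB1 was dim at 12 DAF and reached 4.84, 4.90 and 6.50, at least 4.76-fold higher. TUB5 went from 5.16, 5.21 and 5.18 to 6.76, 6.91 and 7.93, 4.04-fold higher, and TUB7 fell 2.03-fold. All 3 had an interaction above 0.

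Serine carboxypeptidase-like (SCPL) genes, whose family holds proteases and acyltransferases, moved both ways in abi3-6. Of 15 tested members 8 rose, 3 fell and 4 did not pass, with a median of 1.02, or 0.81 at the bound, against 1 and 8 in wild type with a median of -0.95, or -0.75 at the bound. Interactions lay above 0 for 11 and below 0 for 1, and 3 members both rose in abi3-6 and fell in wild type. scpl20 went from 4.91, 4.25 and 4.87 to 8.00, 8.03 and 8.82, 12.2-fold higher, and fell at least 2.97-fold in wild type.

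scpl50 went from 4.47 to 4.69 up to 6.05 to 7.03, 4.18-fold higher. scpl44 was dim at 12 DAF and reached 4.45, 4.51 and 6.63, at least 4.11-fold higher, with a fitted change of 3.02 ± 0.41, or 2.31 without replicate 3. SCPL45 fell by 1.88 on the log2 scale and was above the dim limit on 1 of 3 arrays at 16 DAF. Of the 4, scpl20 had the widest gap between the courses, 6.15 in the interaction.

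Hormone genes gave mixed results. Of 10 tested genes of auxin response 3 rose and 3 fell in abi3-6, with a median of -0.07, or -0.01 at the bound, and 5 fell in wild type with a median of -0.65. WES1 (GH3.5), which conjugates auxin to amino acids, went from 7.57, 7.34 and 7.59 to 9.45, 9.59 and 9.78, 4.32-fold higher, and fell by 1.05 on the log2 scale in wild type. GH3.9 fell 8.52-fold, and the repressors IAA30 and IAA31 fell 5.72-fold and at least 4.29-fold.

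Of 5 genes of gibberellin response 2 rose and 1 fell. GID1C, a gibberellin receptor, went from 3.34, 3.32 and 3.33 to 4.79, 4.77 and 4.44, 2.52-fold higher, against a rise of 2.70 on the log2 scale in wild type. AT2G14900, of the gibberellin-regulated GASA family, fell 2.34-fold from 6.77 ± 0.36 to 5.55 ± 0.50 (SD, n = 3). Of 3 iron response genes 1 fell, AT1G47400, an IRONMAN peptide of iron uptake, from 11.58, 12.19 and 12.27 to 10.43, 10.23 and 10.03, with a wild-type change of -0.13. Wild-type levels of AT1G47400 were near the dim limit at both ages, 3.38 ± 0.29 and 3.25 ± 0.17 (SD, n = 3), which left little room to fall.

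Of 9 genes of cell division and DNA replication 4 rose and 1 fell, with a median of 0.30, against 3 and 1 in wild type with a median of 0.07, or 0 at the bound. PRL, the MCM7 subunit of the replicative helicase, went from 3.73, 3.83 and 3.89 to 4.93, 4.93 and 5.83, 2.66-fold higher, with a wild-type change of 0.00 between dim levels. AUR2, an Aurora kinase, fell by 0.80 on the log2 scale. Interactions lay above 0 for 2 and below 0 for 4.

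Of 10 autophagy genes, those of the ATG8 family and ATG3, 5 fell and 1 rose, with a median of -0.34, and ATG8D, a ubiquitin-like protein of the autophagosome membrane, fell 2.45-fold from 8.78 ± 0.22 to 7.48 ± 0.30 (SD, n = 3). In 6 glutathione transferases 5 fell and 1 rose, with a median of -0.79, or -0.70 at the bound, beside a wild-type median of -0.77, or -0.50 at the bound. In 9 bZIP factors 4 fell and 1 rose with a median of -0.43, or -0.28 at the bound, in 10 MADS factors 3 fell and 2 rose (1 without 16 DAF replicate 3) with a median of 0.06, or 0 at the bound, in 4 WRKY factors 1 rose (0 without that array), and in 7 genes of leucine breakdown and its electron carriers 2 fell with a median of 0.02.

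**Figure D4:**
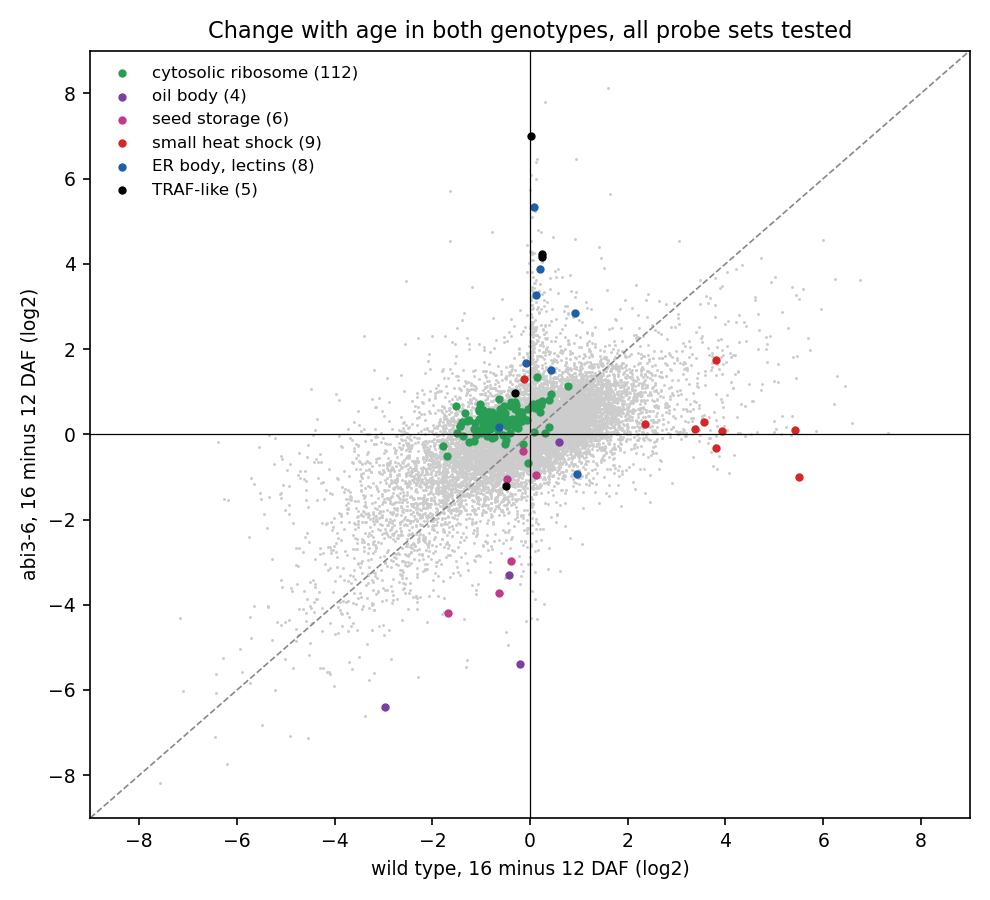
Log2 change from 12 to 16 DAF in abi3-6 (vertical axis) against that in wild type (horizontal axis) for the 14873 probe sets tested, with 6 gene lists in colour and a dashed line where both changes are equal. Across probe sets, which are not independent replicates, r was 0.614. Of the 112 cytosolic ribosomal genes 91 had an interaction above 0, or 69 after centring each array on its median.

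Markers of other tissues were few. Of the seed coat markers, ARA12, a subtilase of mucilage release, went from 10.68, 10.26 and 10.38 to 11.34, 11.11 and 11.38, 1.78-fold higher. BAN, anthocyanidin reductase, was above the dim limit on 1 of 3 arrays at 12 DAF and on 0 of 3 at 16 DAF, a fitted change of -0.50 that was lost without any 12 DAF array (-0.53, -0.43 and -0.55) or without 16 DAF replicate 1 (-0.29). DFR, which makes anthocyanins and proanthocyanidins upstream of BAN, went from 4.09, 3.50 and 3.74 to 6.29, 6.04 and 7.05, 6.44-fold higher, and fell by 1.40 on the log2 scale in wild type.

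The log2 of the summed signal of both seed coat markers lay between 10.27 and 10.69 at 12 DAF and between 11.11 and 11.38 at 16 DAF. ARA12 alone lay between 10.26 and 10.68 and then between 11.11 and 11.38, so the sum followed ARA12 and not BAN. The silique wall marker ALC was at 3.18, 2.92 and 2.99, above the dim limit on 1 of 3 arrays, and then between 3.62 and 4.75, a rise of 1.22 ± 0.29. The endosperm marker AT5G07260, 1 of 3 on the array that was tested, went from 8.55, 8.57 and 8.91 to 4.60, 4.87 and 3.05, 22.7-fold lower, and changed by -3.85 in wild type, and the log2 of the summed signal of the 3 lay between 8.59 and 8.94 and then between 4.29 and 5.34. The markers of embryo meristem and of pollen, 1 of each on the array, were dim on every abi3-6 array. The seed coat marker ARA12, the silique wall marker ALC and the endosperm marker AT5G07260 thus moved with age beside the genes above. The part of these tissues in those results was not tested. In RNA of whole seeds, fewer cells of a type and less RNA per cell cannot be told apart.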

How the data were processed

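Each of the 12 samples was hybridised to its own 1-colour Affymetrix array, per the labels' protocols. The authors deposited 1 value per probe set and array, and the submitters' processing notes name GCOS 1.3 and also GCRMA 2.0.0, without saying what either did. The deposited values were read as log2 levels from their range. Whether arrays were centred is not given in the sources used here, and no raw intensities were used. GCRMA can stretch or compress differences of dim probe sets.

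Genotype and age labels gave the groups. Probe sets dim (under 3.16) on more than 9 of the 12 arrays were left out. limma 3.58.1 in R 4.3.3 fitted 4 group means over all 12 arrays (8 residual and 5.41 prior degrees of freedom), with two-sided tests of 16 minus 12 DAF in each genotype and of their difference, adjusted by Benjamini and Hochberg's method over 14873 probe sets and called under 0.05. Where a group was dim on all 3 arrays the fold is a bound, the other group's mean against, per array, the higher of the dim group's value and the lowest level counted as above the limit. The 3 arrays a group limit the precision, and p-values measure the spread between plant batches.

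Names came from GEO's platform annotation, updated through the TAIR10.1 table. Of 22746 probe sets 13513 had 1 gene (13436 in that table), 503 several and 8730 were unnamed here. A locus with several probe sets is shown by the brightest. Named genes were the 12 largest falls and rises, up to 4 passing members of each list and the most positive and negative interactions, with some such genes left out. Members and lists were chosen with earlier results of these data known, and the TRAF-like, jacalin, germin-like, lipid transfer, pectin methylesterase and inhibitor lists after values were seen. The fit was tested on simulated data. A planned description of promoter motifs was not made, as no promoter sequences were at hand.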

Additional observations from a re-analysis of the deposited data

Results flagged for a closer look

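Of the 125 genes named in the text, 92 are listed because the interaction test of limma passed: their change from 12 to 16 DAF differed between abi3-6 and wild type. The values are the log2 change in abi3-6 minus that in wild type, as fitted, and are not bounds where a group was dim. The interaction passed for 40.1% of all probe sets tested, and the genes were chosen in part for it. The difference was above 0 for 50 genes and below 0 for 42.

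Differences above 0 of at least 4 log2 units were those of AT5G26260 (6.97), CP1 (6.53), AT1G29090 (6.31), EXPA9 (6.16), scpl20 (6.15), AT1G67330 (5.31), JAL33 (5.26), NDB3 (4.65), XTH19 (4.52), AT1G52100 (4.29), DFR (4.09) and AT1G54410 (4.04), with cysteine proteinases, an expansin, lectins and a TRAF-like gene among them. Those from 3 to 4 were AT3G20370 (3.98), AT5G26280 (3.92), PSBY (3.87), DELTA-VPE (3.72), JAL22 (3.66), AT1G15010 (3.65), APL3 (3.50), AT3G53980 (3.42), AT5G62340 (3.18), WES1 (3.17), JAL34 (3.14) and PRK (3.08). In this range the photosynthesis genes PSBY and PRK fell in both genotypes and less in abi3-6, and DELTA-VPE fell in wild type and did not pass in abi3-6. Those from 2 to 3 were scpl44 (2.98), TUB5 (2.76), TUB1 (2.59), AT2G03850 (2.57), ALC (2.48), PSAN (2.38), AT1G62770 (2.30) and Fes1B (2.24). Those under 2 were PYK10 (1.92), CHLI2 (1.84), scpl50 (1.79), DPE1 (1.59), LCR67 (1.48), AT5G47190 (1.43), AT4G21870 (1.41), PRL (1.41), TUB7 (1.36), IAA31 (1.36), ZW9 (1.27), AT1G23410 (1.22), AT2G37600 (1.19), LHCB4.3 (1.13), AT4G25980 (1.08), AT3G04200 (1.03), ARA12 (0.94) and XTH32 (0.59).

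Differences below 0 of at least 4 log2 units were those of AT2G34740 (-7.30), AT1G52560 (-6.52), M17 (-5.33), AT3G18570 (-5.18), AT1G48750 (-4.98), AT1G12130 (-4.73), AT2G18340 (-4.67) and AT1G23205 (-4.13). In this range AT2G34740, AT1G52560, M17, AT1G48750, AT1G12130 and AT2G18340 rose in wild type, and AT3G18570 and AT1G23205 fell in abi3-6. Those from 2 to 4 were OLEO3 (-3.42), AT1G04660 (-3.39), AT5G55620 (-3.23), AT1G03890 (-3.09), AT3G01570 (-2.88), LEA (-2.87), AT2G28490 (-2.59), AT2G34700 (-2.58), AT4G36700 (-2.51), AT5G07030 (-2.39), AT3G58550 (-2.16) and AT5G37670 (-2.07), among them cupins and oleosins. Those from 1 to 2 were BGLU19 (-1.90), AIM1 (-1.82), AT1G23200 (-1.74), CaS (-1.71), AT1G47400 (-1.66), AT2G18370 (-1.52), AT5G51490 (-1.47), ATPC2 (-1.43), AT3G17130 (-1.40), GID1C (-1.37), AT5G16230 (-1.36), BETA-VPE (-1.27), AT1G05450 (-1.17), PME61 (-1.09) and IAA30 (-1.07). Those under 1 were AUR2 (-0.89), AT2G25890 (-0.77), AT3G28220 (-0.71), AT3G13120 (-0.67), SWEET11 (-0.64), FACT (-0.60) and ICL (-0.53). The calls of PYK10, ICL, SWEET11, FACT, IAA30, XTH32, AT1G23200, AT2G34700, AT5G16230, AT3G28220, AT3G13120 and PME61 were lost in at least 1 alternative.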

How the results depend on the processing

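Under median centring, quantile normalization, no filter, a stricter filter (50th percentile), array weights, a variance trend and only the 6 abi3-6 arrays, between 3681 and 4546 probe sets rose in abi3-6 and between 3320 and 3784 fell. Leaving out each array in turn gave 3426 to 3635 and 3123 to 3260, and the share of calls that were rises stayed between 51.81% and 55.17%. Centring moved the share of rises from 51.31% to 63.75% in wild type (6544 rose, 3721 fell) and the share of interactions above 0 from 52.84% to 36.27%. Same-numbered abi3-6 arrays of the 2 ages had correlated deviations of 0.156, 0.034 and 0.031. These gave no clear sign of pairing by number, but with 3 arrays a group they cannot exclude it. With the replicate block 4046 rose and 3525 fell in abi3-6, 4763 and 4530 in wild type, and 3184 and 2818 interactions lay above and below 0, and 2 of 6 abi3-6 arrays correlated best with their own number. Of 12 lists recomputed under every alternative, 4 had a count of abi3-6 rises or falls that moved by over 1.5 times: ribosomal genes that fell were 1 with no filter or quantile normalization (1 to 2 on leaving out an array), small heat shock genes that rose were 1 under the stricter filter, photosystem genes that fell were 3 under quantile normalization (3 to 4 on leaving out an array), and ER body genes that fell were 0 with only the abi3-6 arrays (0 to 1 on leaving out an array). Moves within 1.5 times included ribosomal rises of 41 to 71 and chlorophyll synthesis rises of 5 to 7. The causes were not tested. Over the named genes, 1716 values of the abi3-6 change kept direction and call and 32 kept direction only, and for the interaction 1683 and 64. Dim probe sets carry only bounds, 6383 of the probe sets tested had no gene name here, and the arrays limit precision to 3 a group.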
